A study of Homo sapiens with 8 samples.

Results

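Ribosome biogenesis genes encode the nucleolar proteins and enzymes that transcribe ribosomal RNA, modify and cut it, and assemble it into ribosomal subunits. They were followed in T47D, an established human breast cancer cell line of luminal type that carries the estrogen receptor and divides in response to estradiol (E2). The rule named 45 genes, and 41 of them were read on the arrays, out of 18417 genes in all. A gene was read through the probe set that the platform annotation gives to that gene alone, and where there were several, through the one with the highest mean over the 8 arrays. NOP56 and PPAN were annotated only on probe sets shared with other genes, and GNL3 and DDX18 had no probe set under their symbol, so these 4 were not analysed here.

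The study had 4 groups of 2 Affymetrix Human Gene 1.0 ST arrays. Cells given 17β-HSD1 siRNA received either E2 or vehicle, and so did cells given control siRNA. HSD17B1 encodes 17β-HSD1, which converts estrone into estradiol, and it was targeted by 3 siRNAs mixed at 200 nM, while the control was a scrambled sequence. All groups were kept in medium whose serum had been stripped of steroids with charcoal. E2 at 1 nM, or its ethanol vehicle, was added 48 h after transfection and left for 2 days. The arrays of a group, numbered 1 and 2, came from separate culture experiments of this single line, and the labels do not say whether a number marks the same experiment in every group. A value is the deposited log2 signal of a probe set, and apart from the check of cell type markers it was not compared between genes. A change is a difference of group means on the log2 scale, given with its standard error (SE) from limma, and averaged changes set 4 arrays against 4.

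HSD17B1 lay between 8.32 and 8.41 in the 4 arrays of 17β-HSD1 siRNA, against 8.56 to 9.35 in the 4 arrays of control siRNA. Its averaged change of -0.56 ± 0.16 did not pass the limma test (adjusted p = 0.221). The 8 luminal markers had mean signals between 8.68 and 13.4, and 18 markers of fibroblasts, immune, endothelial and basal cells between 4.62 and 8.86. These ranges overlapped, with ESR1 at 8.68 below the fibroblast marker COL1A1 at 8.86. The array of 17β-HSD1 siRNA with vehicle, replicate 1, correlated with the other arrays at 0.976 on average, and the remaining arrays at 0.984 to 0.988.

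In the nucleolus, RNA polymerase I copies ribosomal DNA into a long precursor RNA. Box C/D and box H/ACA ribonucleoproteins modify the precursor at chosen nucleotides, the small subunit processome folds and cleaves it, and a succession of assembly factors builds the large subunit. Many of these genes are known targets of MYC, a transcription factor that binds DNA with its partner MAX at E-boxes, and MYC is itself a known early target of the estrogen receptor in breast cancer cells.

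Promoter windows from RefSeq (GRCh38.p14), running from 250 bases before a gene's start to 50 bases after it, were found for 35 of the 41 members, of which 5 had more than 1 start. The canonical E-box, CACGTG, which reads the same on both strands, was in 15 of these 40 windows (37.5%), against 8.34% of 22199 windows of protein-coding genes. The variant CACGCG, searched on both strands as CACGCG or CGCGTG, was in 37.5% of the members' windows, against 14.3%. The shares were not tested. Median GC content was 63.7% in the members' windows, against 62.3%. No member's window held the palindromic estrogen response element (GGTCA, any 3 bases, TGACC), which was in 0.036% of the protein-coding windows. The sequences below are the 100 bases before a start of each gene. The first 4 are the members whose canonical E-box, in capitals, lay wholly upstream of that start. The last is DKC1, the member that passed the test for E2 and whose window held neither E-box.
LYAR, chr4:4290022-4290121, minus strand: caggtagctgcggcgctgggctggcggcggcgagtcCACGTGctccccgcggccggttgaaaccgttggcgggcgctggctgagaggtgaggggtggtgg
DDX21, chr10:68956547-68956646, plus strand: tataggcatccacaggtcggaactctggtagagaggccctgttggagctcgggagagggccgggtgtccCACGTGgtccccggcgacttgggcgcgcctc
UTP4, chr16:69132549-69132648, plus strand: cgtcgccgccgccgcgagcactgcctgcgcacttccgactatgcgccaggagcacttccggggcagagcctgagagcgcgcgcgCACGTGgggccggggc
UTP20, chr12:101280005-101280104, plus strand: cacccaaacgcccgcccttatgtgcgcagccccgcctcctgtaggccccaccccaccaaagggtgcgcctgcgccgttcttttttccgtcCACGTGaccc
DKC1, chrX:154762764-154762863, plus strand: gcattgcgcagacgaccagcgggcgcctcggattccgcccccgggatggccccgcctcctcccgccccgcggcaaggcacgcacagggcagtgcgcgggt
In LYAR the E-box began 64 bases before the start shown, in DDX21 31, in UTP4 16 and in UTP20 10. LYAR and DDX21 each had another listed start, whose window held no canonical E-box. In the other 11 windows with this E-box it lay wholly or partly after the start.

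The first question was whether E2 raised these genes. All 41 members had a positive averaged E2 change, with a median of 0.31 and a range of 0.05 to 0.81, while the median over all 18417 genes was -0.02 and 41.9% of them were positive. The members' median was 0.20, with 39 of 41 positive, without replicate 2 of control siRNA with vehicle, and 0.41 without replicate 1 of that group, and 40 were positive without replicate 2 of 17β-HSD1 siRNA with vehicle. DKC1 was the 1 member that passed the test (adjusted p below 0.05), where 1.4% of all genes were called up and 0.244% down. At an unadjusted p below 0.05, 22 members were higher with E2, beside 5.38% of all genes, and none was lower, beside 3.53%. The members had been chosen with earlier results of these data known, so these counts are descriptions. Whether a change reflects more RNA per cell or another mixture of cell cycle stages cannot be told apart in bulk arrays.

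**Figure D1:**
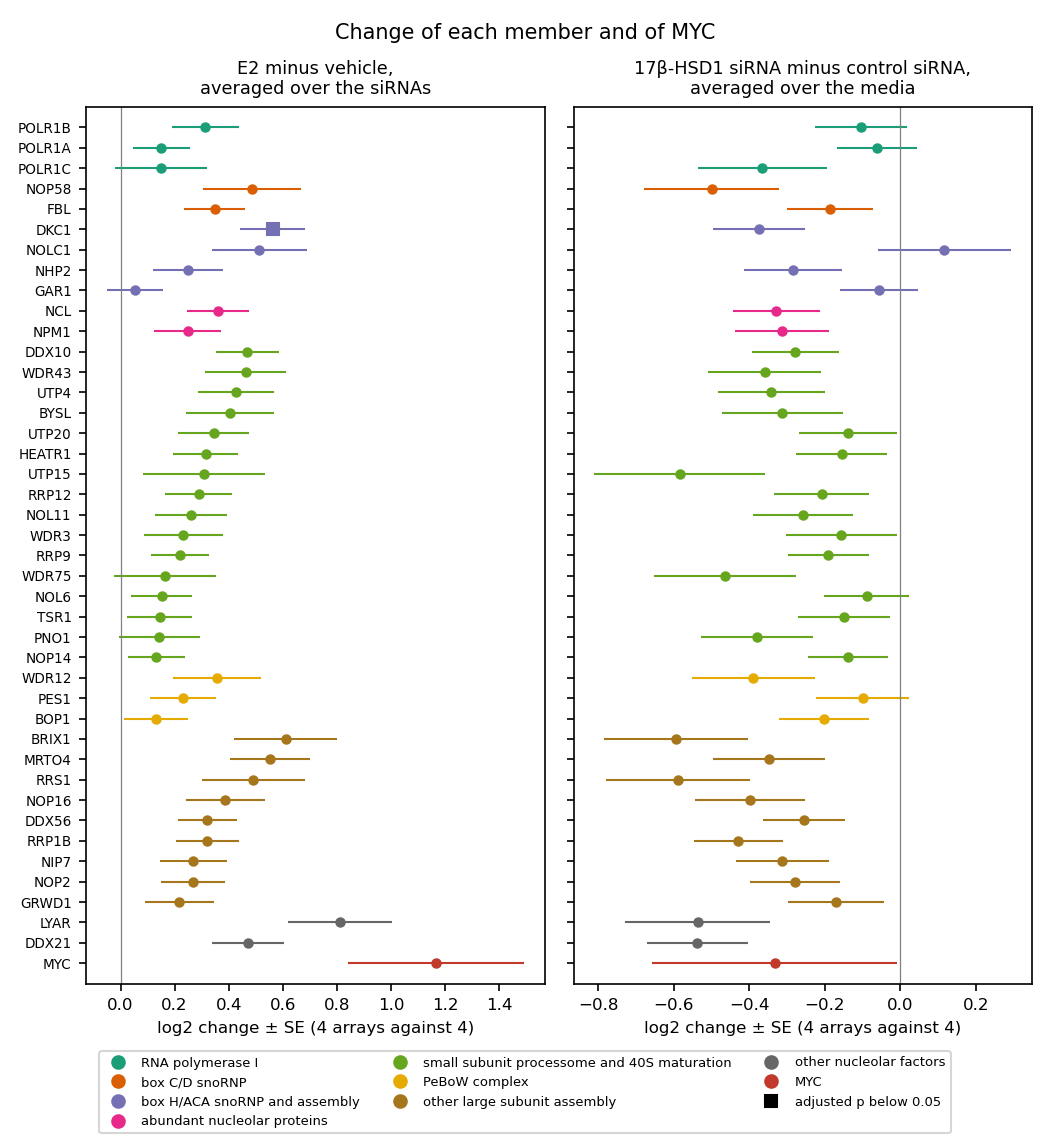
Averaged log2 change ± SE (4 arrays against 4) of each of the 41 members, grouped by role and coloured by it, and of MYC at the bottom: E2 minus vehicle on the left, 17β-HSD1 siRNA minus control siRNA on the right. All 41 members lie right of 0 for E2 and 40 lie left of 0 for the siRNA. The square marks DKC1, the member with an adjusted p below 0.05.

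Box H/ACA ribonucleoproteins guide the conversion of uridine to pseudouridine in ribosomal RNA, and DKC1 (dyskerin) is their catalytic subunit. After 17β-HSD1 siRNA, DKC1 had signals of 8.94 and 8.86 with E2, against 8.23 and 8.52 with vehicle. With control siRNA it had 9.16 and 9.46 with E2, against 8.84 and 8.58 with vehicle. Every E2 array was above every vehicle array, as for 2.99% of all genes, and DKC1 was the single member of which this was true. DKC1 rose 1.48-fold (0.56 ± 0.12, limma adjusted p = 0.0481). The call was lost (adjusted p between 0.0551 and 0.226) when any 1 of 6 arrays was left out, namely both arrays of 17β-HSD1 siRNA with E2, replicate 1 of 17β-HSD1 siRNA with vehicle, replicate 2 of control siRNA with E2 and both arrays of control siRNA with vehicle. With unnamed probe sets included, DKC1 had an adjusted p of 0.17. NOLC1 (Nopp140) is a chaperone of both ribonucleoprotein classes. After 17β-HSD1 siRNA it had 10.01 and 10.12 with E2, against 9.40 and 9.79 with vehicle, and with control siRNA 9.62 and 10.36 with E2, against 9.18 and 9.69 with vehicle. In all 4 groups replicate 2 was above replicate 1, and E2 and vehicle overlapped with control siRNA. Its change was 0.51 ± 0.18, with an adjusted p of 0.296. The core proteins NHP2 and GAR1 had changes of 0.25 ± 0.13 and 0.05 ± 0.10, with adjusted p of 0.686 and 0.988, and that of GAR1 was the smallest of the 41 members. A second probe set of NHP2 gave 0.33 ± 0.16.

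Box C/D ribonucleoproteins add methyl groups to ribose, with FBL (fibrillarin) as the methyltransferase and NOP58 as a core scaffold. FBL had 9.67 and 9.57 with E2, against 9.25 and 9.33 with vehicle, after 17β-HSD1 siRNA. With control siRNA it had 9.84 and 9.80 with E2, against 9.65 and 9.27 with vehicle. E2 was above vehicle within each siRNA, by 0.35 ± 0.11 on average (adjusted p = 0.253). NOP58 differed by 0.49 ± 0.18 (adjusted p = 0.367), and its array of control siRNA with vehicle, replicate 1, at 10.26, was as high as those with E2, at 10.29 and 10.25. The abundant nucleolar proteins NCL (nucleolin), which binds nascent ribosomal RNA, and NPM1 (nucleophosmin), a histone and ribosomal protein chaperone, had changes of 0.36 ± 0.12 and 0.25 ± 0.12 (adjusted p of 0.242 and 0.644). NPM1 has many processed pseudogenes whose signal the probe sets may share. Of its 4 probe sets, 3 had mean signals of 12.1 to 12.3 and E2 changes of 0.25 to 0.28, and the fourth, at 6.58, had -0.01.

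None of the 3 members that are subunits of RNA polymerase I passed. POLR1B, the second largest subunit, had a change of 0.31 ± 0.12, POLR1A, the largest, 0.15 ± 0.10, and POLR1C, shared with RNA polymerase III, 0.15 ± 0.17, with adjusted p of 0.424, 0.871 and 0.969. POLR1A stayed between 8.87 and 9.16 over the 8 arrays.

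The 16 genes of the small subunit processome and of 40S maturation had a median E2 change of 0.28, between 0.13 and 0.47, and none passed. DDX10, a helicase of the DEAD-box family needed to release a small nucleolar RNA in yeast, came first. It had 8.41 and 8.58 with E2, against 7.95 and 8.20 with vehicle, after 17β-HSD1 siRNA, and 8.87 and 8.77 with E2, against 8.45 and 8.16 with vehicle, with control siRNA. The groups did not overlap within either siRNA, and the change of 0.47 ± 0.12 had an adjusted p of 0.0861. WDR43 (0.46 ± 0.15), UTP4 (0.43 ± 0.14), BYSL (0.40 ± 0.16), which acts late in 40S maturation, UTP20 (0.34 ± 0.13) and HEATR1 (0.32 ± 0.12), needed for polymerase I transcription and early cleavage, followed with adjusted p between 0.246 and 0.441. UTP15, WDR3, NOL11, NOL6, NOP14, RRP9, RRP12, WDR75, PNO1 and TSR1 lay between 0.13 and 0.31.

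Among factors of the large subunit, the PeBoW complex, which is needed to process the RNA of the large subunit, had changes of 0.36 ± 0.16 for WDR12, 0.23 ± 0.12 for PES1 and 0.13 ± 0.12 for BOP1. Of the other 9 assembly factors BRIX1, needed for early large-subunit particles, had the largest change, 1.53-fold (0.61 ± 0.19, adjusted p = 0.225). BRIX1 had 9.10 and 9.34 with E2, against 8.17 and 8.99 with vehicle, after 17β-HSD1 siRNA, and 9.91 and 9.67 with E2, against 9.53 and 8.88 with vehicle, with control siRNA. In both siRNAs the gap between the vehicle arrays was larger than the averaged change. MRTO4, which resembles the stalk protein P0 and holds its place on the nascent subunit, had 0.55 ± 0.15 (adjusted p = 0.124) and RRS1, which helps to bring in the 5S particle, had 0.49 ± 0.19 (adjusted p = 0.411). NOP16 (0.39 ± 0.15), DDX56 (0.32 ± 0.11), RRP1B (0.32 ± 0.12), NIP7 (0.27 ± 0.12), NOP2, a cytosine methyltransferase of the large-subunit RNA (0.27 ± 0.12), and GRWD1 (0.22 ± 0.13) completed the group, and none passed.

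LYAR, a nucleolar zinc-finger protein known for promoting cell growth, had the largest E2 change of all members. It had 7.64 and 7.90 with E2, against 6.72 and 7.39 with vehicle, after 17β-HSD1 siRNA, and 8.41 and 8.40 with E2, against 7.93 and 7.07 with vehicle, with control siRNA. The E2 arrays lay above the vehicle arrays within each siRNA but overlapped across them, and the change of 0.81 ± 0.19, 1.76-fold, had an adjusted p of 0.0731. DDX21, a helicase that links polymerase I transcription to RNA processing, had 10.07 and 10.10 with E2, against 9.51 and 9.60 with vehicle, after 17β-HSD1 siRNA. With control siRNA it had 10.58 and 10.55 with E2, against 10.46 and 9.84 with vehicle. Its replicates lay close together except in the last group, and its change was 0.47 ± 0.13 (adjusted p = 0.157). Without replicate 1 of control siRNA with vehicle, which left 1 array in that group, the members called were others and DKC1 was not among them. The members with a canonical E-box in a window had a median E2 change of 0.34 (15 genes), and those with windows but without it 0.29 (20 genes), over overlapping ranges of 0.05 to 0.81 and 0.14 to 0.61.

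**Figure D2:**
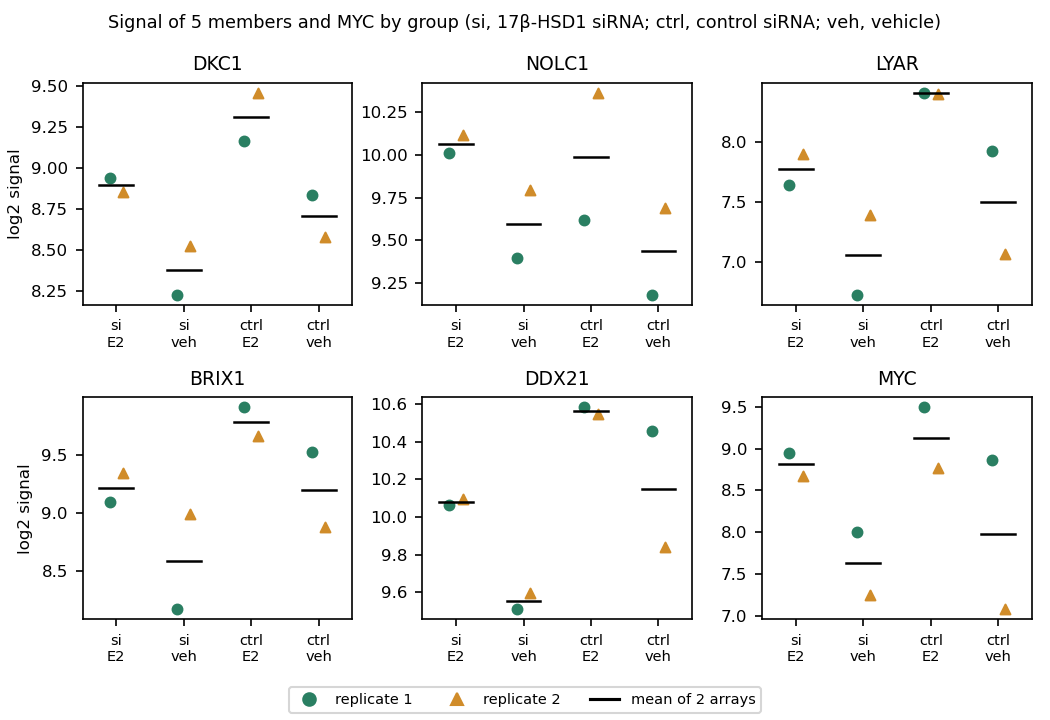
Log2 signal in each array of DKC1, NOLC1, LYAR, BRIX1, DDX21 and MYC, with the 4 groups along each x axis, circles for replicate 1, triangles for replicate 2 and lines for the mean of 2 arrays. In DKC1 every E2 array is above every vehicle array, and in LYAR, BRIX1, DDX21 and MYC replicate 1 of control siRNA with vehicle lies well above replicate 2.

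MYC had 8.95 and 8.67 with E2, against 8.00 and 7.26 with vehicle, after 17β-HSD1 siRNA. With control siRNA it had 9.49 and 8.77 with E2, against 8.87 and 7.09 with vehicle. E2 was above vehicle after 17β-HSD1 siRNA. The vehicle arrays of control siRNA lay far apart, and replicate 1 of that group was above replicate 2 of the E2 group of either siRNA. The averaged change was 2.24-fold, 1.17 ± 0.33 with an adjusted p of 0.148. Its change exceeded that of each of the 41 members, and in this fit so did its SE, the median SE of the members being 0.13. With the replicate number added to the fit as a block, the SE of MYC was 0.192 (limma adjusted p = 0.00806). In that fit LYAR (0.193) and UTP15 (0.224) had larger SEs than MYC.

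Taken within each siRNA, the E2 response of the members was of like size. The median was 0.32 after 17β-HSD1 siRNA, with 40 of 41 positive, and 0.33 with control siRNA, with 41 of 41 positive. Of all genes 43% and 47.6% were positive. No member passed in limma in either, where 0.282% and 0.0706% of all genes were called up and 0% and 0.0163% down, and 10 members in each had an unadjusted p below 0.05 and were higher, beside 3.32% and 3.27% of all genes. The arrays with E2 all lay above those with vehicle for 28 members after 17β-HSD1 siRNA (12.6% of all genes) and for 21 with control siRNA (16.7%). MYC differed by 1.18 ± 0.46 after 17β-HSD1 siRNA and by 1.15 ± 0.46 with control siRNA (adjusted p of 0.906 and 0.677). Without replicate 1 of the vehicle group MYC had 1.55 after 17β-HSD1 siRNA and 2.04 with control siRNA, and without replicate 2 it had 0.81 and 0.26. These contrasts share their arrays with the averaged one. The difference between both responses, the interaction, had a median of 0.01 over the members, with 21 positive and 20 negative. None passed in limma (0% of all genes) and none had an unadjusted p below 0.05, where 0.244% of all genes had one upward and 0.348% downward. The SE of this difference had a median of 0.25, beside a median averaged E2 change of 0.31, so a difference in response of that size could not have been detected with these arrays. Both medians of the members rested on the vehicle arrays. After 17β-HSD1 siRNA the median was 0.21 without replicate 1 of the vehicle group and 0.44 without replicate 2. With control siRNA it was 0.53 without replicate 1 and 0.09 without replicate 2, and the median interaction was -0.21 and 0.24 in these last 2 fits.

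**Figure D3:**
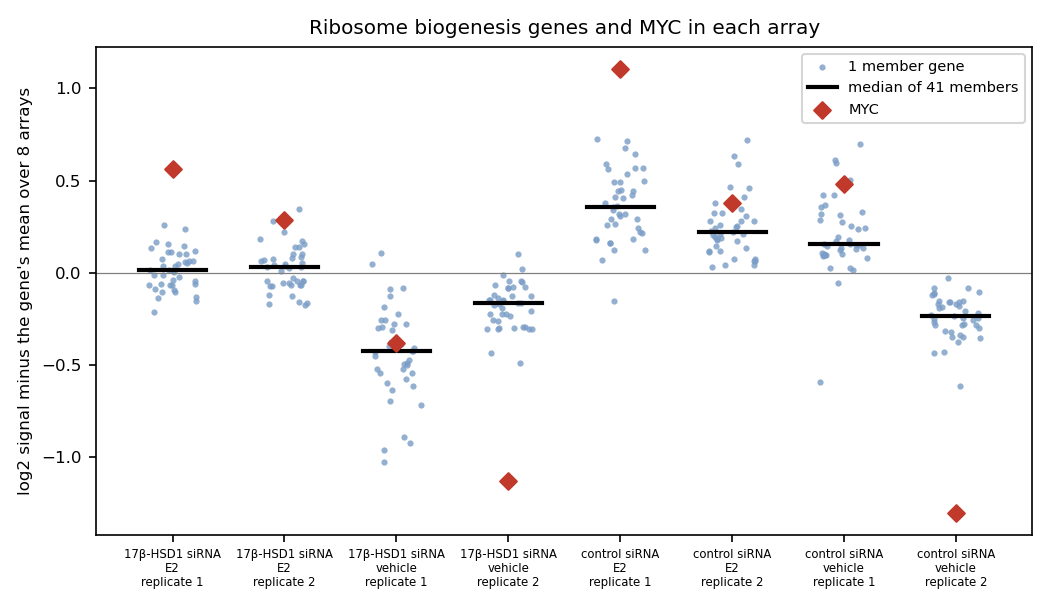
Log2 signal of each of the 41 members (points) and of MYC (diamonds) minus the gene's own mean over the 8 arrays, by array, with the members' median as a line. The median is highest in control siRNA with E2 (0.36 and 0.22), near 0 in 17β-HSD1 siRNA with E2, and lowest in replicate 1 of 17β-HSD1 siRNA with vehicle (-0.42). The arrays of control siRNA with vehicle fall on both sides of 0, at 0.16 and -0.23.

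The second question was whether 17β-HSD1 siRNA changed the same genes. Averaged over the media, 40 of 41 members had a negative change, with a median of -0.28 and a range of -0.59 to 0.12. The median over all genes was 0.01, and 54.3% of them were positive. No member passed in limma, where 0.239% of all genes were called down and 0.206% up. At an unadjusted p below 0.05, 22 members were lower with 17β-HSD1 siRNA, beside 5.63% of all genes, and none was higher, beside 3.55%. For every member the 4 arrays of 17β-HSD1 siRNA overlapped the 4 of control siRNA, while 2.17% of all genes were apart and lower. Without replicate 2 of control siRNA with vehicle the members' median was -0.38, and without replicate 1 of that group it was -0.19. DDX21, with the signals given above, had the smallest adjusted p, at -0.54 ± 0.13 (adjusted p = 0.138), and RRP1B, a partner of protein phosphatase 1 in the nucleolus, had -0.43 ± 0.12 (adjusted p = 0.179). RRP1B had 8.49 and 8.56 after 17β-HSD1 siRNA, against 9.19 and 8.90 after control siRNA, in E2, and 8.23 and 8.36, against 8.80 and 8.47, in vehicle. Within each medium its arrays did not overlap.

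Beside DDX21, the largest differences were those of BRIX1 (-0.59 ± 0.19), RRS1 (-0.59 ± 0.19), UTP15 (-0.58 ± 0.23), LYAR (-0.54 ± 0.19) and NOP58 (-0.50 ± 0.18), with adjusted p between 0.279 and 0.411. The PeBoW proteins lay between -0.39 and -0.10 and the polymerase I subunits between -0.36 and -0.06. DKC1 differed by -0.37 ± 0.12 (adjusted p = 0.286). NOLC1 was the exception with 0.12 ± 0.18 (adjusted p = 0.943).

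In E2 the siRNA difference had a median of -0.29, with 40 of 41 members negative, while 49.2% of all genes were positive. The members' median was -0.20 without replicate 1 of control siRNA with E2 and -0.36 without replicate 2. The arrays with 17β-HSD1 siRNA all lay below those with control siRNA for 32 members, beside 19.9% of all genes. No member passed in limma, nor did any of the 18417 genes (0%), and 6 members had an unadjusted p below 0.05 and were lower, beside 2.12% of all genes. In vehicle the median was also -0.29, with 38 of 41 members negative, while 55.1% of all genes were positive. The replicates of both groups lay further apart, however. With 17β-HSD1 siRNA 39 members were lower between the arrays numbered 1 (median -0.60), and 28 were higher between those numbered 2 (median 0.05). Against the genes' own means the members' medians were -0.42 and -0.16 with 17β-HSD1 siRNA and 0.16 and -0.23 with control siRNA. The arrays were apart and lower for 11 members (12% of all genes), none passed in limma (0% of all genes), and 7 had an unadjusted p below 0.05, beside 3.63% of all genes. Without replicate 1 of control siRNA with vehicle the median in vehicle was -0.05, and without replicate 2 it was -0.45.

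In the fit without the block the siRNA change of MYC was about the size of its SE or smaller. The averaged change was -0.33 ± 0.33 (adjusted p = 0.899), -0.32 ± 0.46 in E2 and -0.35 ± 0.46 in vehicle. With the block the SE was 0.19 for the averaged change (limma adjusted p = 0.599) and 0.27 in E2 and in vehicle. Without replicate 1 of control siRNA with vehicle the averaged siRNA change of MYC was 0.11, while the members' median was -0.19. For 16 of the 41 members the averaged siRNA change was larger than that of MYC and of the same sign. Among the other genes of the MYC network none was called in either averaged comparison by limma, and at an unadjusted p below 0.05 only MLXIP was, upward with the siRNA. MXD4, a MAX partner that opposes MYC, had changes of -0.26 ± 0.13 with E2 and 0.24 ± 0.13 with the siRNA (adjusted p of 0.639 and 0.641), and MLXIP, a partner of MLX in glucose sensing, had 0.25 ± 0.10 with the siRNA (adjusted p = 0.451).

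Related lists had medians of the same signs as the members. Of 74 other ribosome biogenesis genes 67 had a positive averaged E2 change, with a median of 0.17, and 69 a negative siRNA change, with a median of -0.18, and none passed in limma in either. At an unadjusted p below 0.05, 14 were higher with E2 and 13 lower with the siRNA. The shares of all genes at that threshold were 5.38% higher with E2 and 5.63% lower with the siRNA, here and for the lists that follow. URB2, a nucleolar factor, had the smallest p in both, at 0.39 ± 0.11 for E2 and -0.41 ± 0.11 for the siRNA (adjusted p of 0.143 and 0.17). Of 17 further genes of the RNA polymerase I machinery, 16 were positive for E2 (median 0.15) and 16 negative for the siRNA (median -0.21). None passed, and at an unadjusted p below 0.05, 1 was higher with E2, near the share of all genes, and 3 were lower with the siRNA. POLR1E, a subunit of polymerase I, had 0.51 ± 0.13 and -0.56 ± 0.13 (adjusted p of 0.1 and 0.108). Of 83 cytoplasmic ribosomal protein genes, which have many pseudogene copies, 62 were read. With E2, 60 of these had a positive averaged change (median 0.21), 15 of them at an unadjusted p below 0.05. Only RPL39L, a paralog of RPL39, passed (0.60 ± 0.13, limma adjusted p = 0.0433), where 1.4% of all genes were called up. With the siRNA, 60 had a negative change (median -0.26), 29 of them at an unadjusted p below 0.05, and none passed. Of 22 MYC targets outside the nucleolus none passed, 11 had an unadjusted p below 0.05 and were higher with E2 and 8 were lower with the siRNA, and their medians were 0.27 and -0.24. HSPD1, the mitochondrial chaperonin, had 0.58 ± 0.13 with E2 (adjusted p = 0.0541).

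Proliferation markers were higher with E2 in the same arrays. All 10 rose with E2, with a median of 1.01, where 1.4% of all genes were called up. All 10 had a negative averaged siRNA change, with a median of -0.55, and an unadjusted p below 0.05, beside 5.63% of all genes. The cyclin genes CCNB1 and CCNA2 and the thymidylate synthase gene TYMS were the 3 that passed for the siRNA, where 0.239% of all genes were called down. Their median E2 change was 1.05 after 17β-HSD1 siRNA and 0.95 with control siRNA, and their median siRNA change was -0.49 in E2 and -0.60 in vehicle. Their part in the members' changes was not tested. Of 6 estrogen targets, GREB1, PGR, CXCL12 and MYBL1 rose with E2, and TFF1 and CCND1 had positive changes that did not pass. For the averaged siRNA 5 of the 6 had a negative change and none passed. TP53I3, a p53 target, rose with E2 (0.80 ± 0.15) and fell with the siRNA (-0.92 ± 0.15), and the other 6 genes of the nucleolar stress and p53 list, among them CDKN1A and MDM2, did not pass in either.

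The median level of ribosomal protein genes was lowest in the array where the members were lowest, 17β-HSD1 siRNA with vehicle, replicate 1, at -0.45 against the genes' own means, and the members' median there was -0.42. In that array the median over all genes was 0.07, the highest of the 8. In control siRNA with vehicle the ribosomal protein medians were 0.19 in replicate 1 and -0.09 in replicate 2, in the order of the members and of MYC. What sets these arrays apart was not tested.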

How the data were processed

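Total RNA of T47D cells was hybridised to 8 Affymetrix Human Gene 1.0 ST arrays. The values are the deposited log2 signals of 33297 probe sets, whose scale was inferred from their range (2.42 to 15.2). How the authors summarised and normalized them is not given in the sources used here. Array medians were 7.25 to 7.37, and no further scaling was applied. Precision is limited by the number of arrays.

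Names come from the platform annotation, matched by gene identifier to RefSeq (GRCh38.p14). The 21214 probe sets with a symbol were fitted with limma 3.58.1 in R 4.3.3 (1 mean per group, 4 residual degrees of freedom, eBayes), and p-values were adjusted over all of them by Benjamini-Hochberg, with calls at 0.05. The fit was run on simulated data with planted changes and independent noise in every array. That simulation held no shared deviations of same-numbered arrays, so it does not speak to them. Shares of all genes are over 18417 genes.

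The members, the lists and the rule for named genes (any member, MYC, and listed genes that were called or had the smallest p) were chosen with earlier results of these data known. Samples were grouped by their titles, and replicate numbers were not used in the fit.

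The fit was repeated after quantile normalization, without dim probe sets, with unnamed probe sets added, with 1 probe set or the mean of all probe sets per gene, with a trended robust spread, with the block, on the compared arrays only, and without each array.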

Additional observations from a re-analysis of the deposited data

How the results depend on the processing

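The number of members called for averaged E2 was 1, 0 with unnamed probe sets added (DKC1 adjusted p = 0.17), and 0 to 3 when 1 array was left out. For the averaged siRNA it was 0, and 0 to 2 when 1 array was left out. The other 5 contrasts had 0 under each alternative, by limma.

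When 1 array was left out, the members' median E2 change was 0.20 to 0.41 averaged, 0.21 to 0.44 after 17β-HSD1 siRNA and 0.090 to 0.53 with control siRNA. The siRNA change was -0.38 to -0.19 averaged, -0.36 to -0.20 in E2 and -0.45 to -0.049 in vehicle, and the interaction -0.21 to 0.24.

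MYC had 0.72 to 1.61 for averaged E2 (adjusted p = 0.00511 without control siRNA, vehicle replicate 1), 0.81 to 1.55 for E2 after 17β-HSD1 siRNA and 0.26 to 2.04 with control siRNA when 1 array was left out. It had -0.78 to 0.11 for the averaged siRNA, -0.68 to 0.044 in E2, -1.24 to 0.54 in vehicle and -0.86 to 0.92 for the interaction. Its E2 change after 17β-HSD1 siRNA passed on the 4 arrays compared (1.18, adjusted p = 0.0259), and its interaction was -0.015 after quantile normalization.

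The labels give each group a replicate 1 and 2 but do not tie a number to one culture experiment. Deviations of same-numbered arrays correlated at 0.31 to 0.44 in 4 of 6 pairs of groups and at 0.01 and -0.20 in the other 2. These values do not settle whether a number marks 1 experiment. The main fit left the number out because the labels do not tie it to one. With the replicate block 2 members were called for averaged E2, DKC1 (adjusted p = 0.0336) and NOLC1 (adjusted p = 0.0487), and MYC had 1.17 (adjusted p = 0.00806). The called ribosomal protein genes numbered 2 in place of 1, and the MYC targets outside the nucleolus 1 in place of 0. Over all genes the block raised the calls from 302 to 467 for averaged E2. For the averaged siRNA they rose from 82 to 254, with no member among them.

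In a fit chosen after seeing the data, without both replicate 1 vehicle arrays, MYC had an averaged E2 change of 1.80. The members' medians were 0.53 for E2 with control siRNA, 0.050 for the siRNA in vehicle, -0.12 for the averaged siRNA and -0.36 for the interaction, where MYC had 0.17 in vehicle and -0.49 for the interaction. The cause of these shifts was not tested beyond which arrays were left out.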
